A study of Mus musculus with 20 samples.

Results

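The genes described here encode proteins that the visceral endoderm secretes: Ttr (transthyretin), Afp (alpha-fetoprotein), Apoe, Apoa1 and Apob (apolipoproteins), Rbp4 (retinol binding protein 4) and Fn1 (fibronectin). Their chromatin was followed at GATA6 binding regions, and a region was assigned to a gene when its midpoint lay within 100 kb of the gene start in GENCODE vM21 (mm10). Of the 42403 GATA6 regions in the series, 59 met this rule: 19 at Ttr, 13 at Apoe, 11 at Fn1, 9 at Rbp4, 6 at Apoa1, 1 at Afp and 0 at Apob. A region is named below by its gene and the distance of its midpoint from the gene start, with plus signs for the direction of transcription.

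ATAC-seq, in which a transposase cuts open DNA, was run on 20 samples to follow accessibility. KH2 mouse ES cells (C57BL/6 x 129/Sv) carrying a doxycycline-inducible Gata6 cassette were collected untreated (d0, 3 samples) and with doxycycline in samples titled 8 h, 16 h, d1 and d2 (3 samples each) and d4 (2 samples). The treatment labels give 16, 24, 48 and 72 h for the groups titled 8 h, 16 h, d1 and d2, and 96 h for d4, so the earlier times are uncertain. Wild-type XEN cells (line X10, CD1 background, 3 samples), a stem cell line of extraembryonic endoderm, were untreated. XEN and induced cells therefore differ in strain and line as well as in state, which cannot be told apart. All cells were grown on mouse embryonic fibroblast feeders, and the induced cells came from selected clones. The methods describe removal of feeders by adsorption for RNA-seq and ChIP-seq and do not mention it for ATAC-seq.

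GATA6 is a zinc finger transcription factor of the primitive endoderm, the tissue of the blastocyst that gives rise to visceral and parietal endoderm. Visceral endoderm works much as the later liver does: it makes carrier proteins and lipoproteins and secretes them. Transthyretin carries thyroid hormone and, with retinol binding protein, vitamin A. Alpha-fetoprotein is the main serum protein of the embryo, the apolipoproteins package lipids, and fibronectin is a matrix protein that many other cell types also make.

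A choice of regions from different loci is shown by the bases around their best match to the GATA6 matrix, as scored by the authors. Each sequence was read from the mm10 reference 5′ to 3′ on the strand of the match, and capitals mark the 13 matched bases. The Afp region had the lowest adjusted p at d4 of those tested, the Apoa1 region lies in Apoa4, the Apoe region spans the Apoe start, Rbp4 -36.7 kb had the largest positive difference from d0 at d4 at that locus, Rbp4 -9.0 kb the largest in XEN cells, and the Fn1 region the largest negative one at its locus.
Afp +77.8 kb (chr5:90568588-90568662, minus strand): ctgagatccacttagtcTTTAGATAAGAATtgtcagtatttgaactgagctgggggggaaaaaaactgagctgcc
Apoa1 +13.4 kb (chr9:46242005-46242107, plus strand): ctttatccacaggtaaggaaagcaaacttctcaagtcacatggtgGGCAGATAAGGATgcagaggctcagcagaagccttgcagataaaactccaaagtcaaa
Apoe +0.2 kb (chr7:19699609-19699711, plus strand): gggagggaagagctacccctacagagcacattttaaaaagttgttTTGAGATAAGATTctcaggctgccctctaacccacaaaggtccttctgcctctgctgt
Rbp4 -36.7 kb (chr19:38162147-38162249, plus strand): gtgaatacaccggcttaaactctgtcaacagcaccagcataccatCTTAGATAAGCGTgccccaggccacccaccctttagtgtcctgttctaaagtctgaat
Rbp4 -9.0 kb (chr19:38134180-38134282, minus strand): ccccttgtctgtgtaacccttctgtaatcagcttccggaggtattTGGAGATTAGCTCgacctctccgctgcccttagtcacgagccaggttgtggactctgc
Fn1 +7.1 kb (chr1:71646150-71646252, minus strand): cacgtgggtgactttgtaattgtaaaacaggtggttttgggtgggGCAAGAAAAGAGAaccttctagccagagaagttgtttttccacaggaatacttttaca
The match scores were 12.9, 13.2, 13.6, 10.7, 7.18 and 8.31 in this order. At the loci other than Ttr, the regions nearest the start, highest at d4, or with the largest rise or fall at d4 were so read. Apoe -16.7 kb is one of them but has no GATA6 match and was left out. Of the 13 with a match, 10 hold the letters GATA in the matched bases and 3 do not: Fn1 +7.1 kb, Apoe +33.7 kb and Rbp4 -9.0 kb. Of 2000 best matches drawn from all GATA6 regions, 81.45% hold GATA at the motif core. Over the 59 regions, 51 had a GATA6 match (86.4%, against 89.7% of all GATA6 regions), with a median best score of 10.9 against 10.2. A match describes the letters of the window and is not evidence of binding.

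The deposited accessibility values are averages over the libraries of a group, in RPM (reads scaled to library size) per region, not divided by region width. The values of single libraries were recovered from the averages in 16 libraries: 3 each for 8 h, 16 h, d1 and d2, and 2 each for d4 and XEN, although 3 XEN samples are labelled. The d0 average could not be resolved, so 8 h served as the baseline of every test. Recovery covered 24753 regions, among them the 31 at Afp, Apoe, Apoa1 and Fn1. For the 28 regions at Ttr and Rbp4 library values are given only where a single set of whole reads fitted the average, with no test. One recovered read was worth between 0.00347 and 0.00552 RPM, except in one XEN library, where it was worth more because that library was shallower (179140 reads in recovered regions, against 546951 to 2023651 in the others). The summed RPM of libraries of the same group differed by up to 1.99 times, at 16 h. The letters of libraries are arbitrary. The methods describe 3 independent cultures per group and 2 for d4, but no recovered library could be tied to a given culture. The p-values measure the spread between these libraries, which could not be split into culture and technical parts.

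The median change of the 59 regions was close to that of all GATA6 regions, while fewer of them passed 2-fold higher at d2 and d4 than the share over all regions would give, a description with no test. In the averages, 1 region was more than 2-fold higher at d1 than at d0 (4.55% of all regions were). At d2, 16 were more than 2-fold higher (36.8% of all) and 2 more than 2-fold lower (1.41% of all). At d4 the counts were 10 higher and 5 lower (31.0% and 7.27% of all), and in XEN cells 17 higher and 5 lower (27.7% and 8.83% of all). The median change of the 59 regions on the log2(RPM + 0.03) scale was 0.70 at d2, 0.53 at d4 and 0.37 in XEN cells, beside 0.69, 0.52 and 0.40 over all regions. The whole column moved: its median was 0.83 higher at d2 and 0.56 higher at d4 than at d0. With each column centred on its median, 1 of the 59 was more than 2-fold higher and 9 more than 2-fold lower at d2 (13.1% and 13.9% of all regions), and 6 and 8 at d4 (15.8% and 16.4% of all). Differences between single regions, rather than a shift of the whole set, are what the next paragraphs describe.

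**Figure D1:**
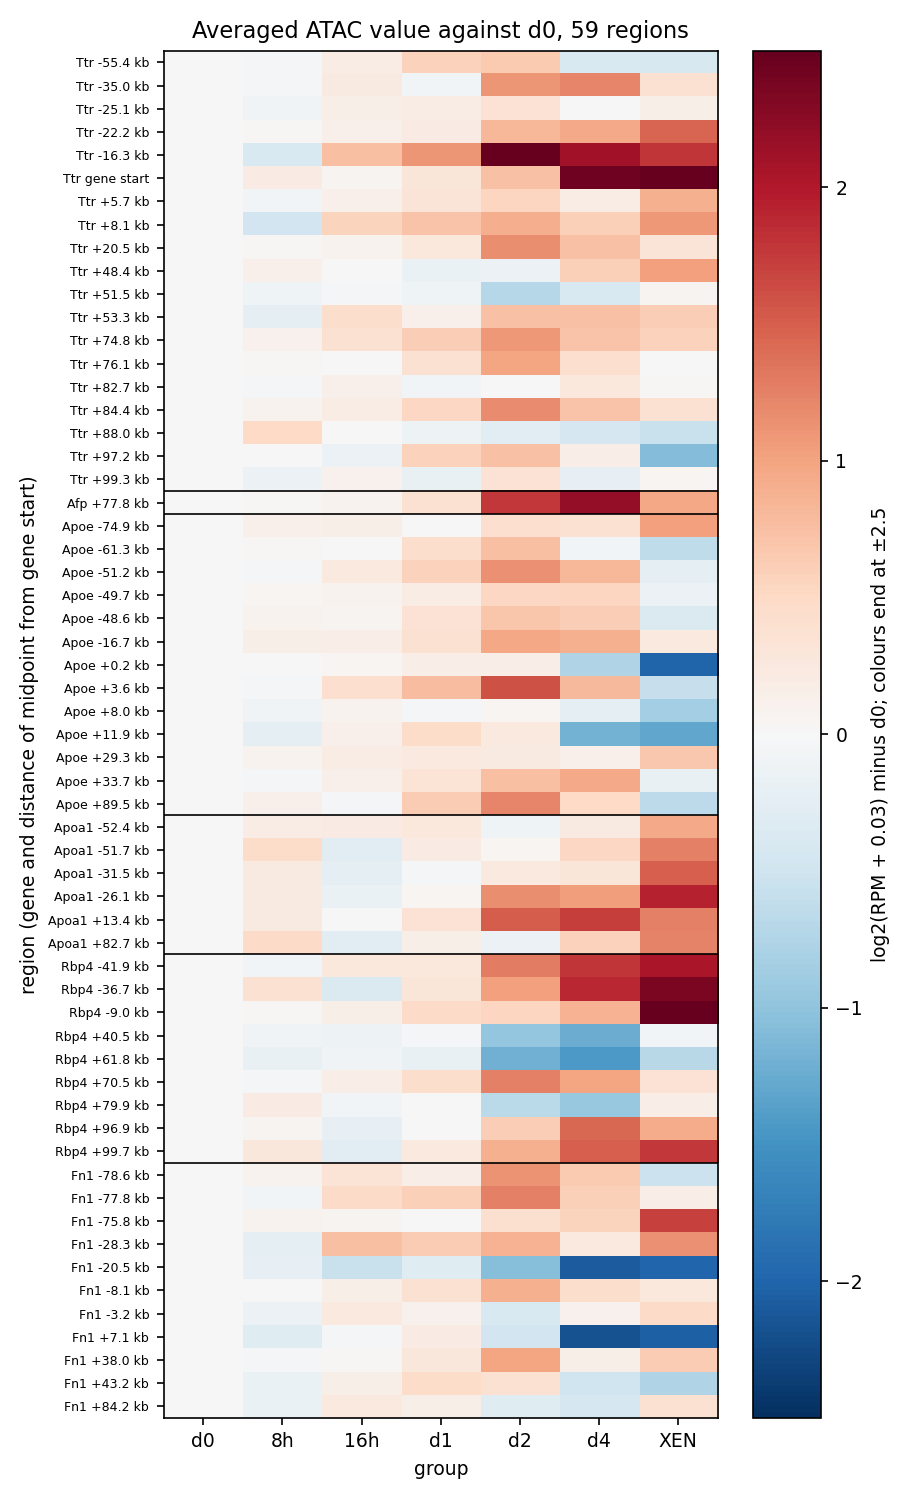
Averaged ATAC value of each of the 59 regions in each group, as the difference of log2(RPM + 0.03) from d0 (red higher, blue lower), ordered by gene and by distance from the gene start. The darkest red cells include the Ttr gene start at d4 and in XEN cells and Rbp4 -9.0 kb in XEN cells only; the darkest blue are Fn1 +7.1 kb and Fn1 -20.5 kb at d4 and in XEN cells and Apoe +0.2 kb in XEN cells.

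At Ttr, the region over the gene start (chr18:20664808-20665655, bound late by GATA6, bound by SOX17, closed at d0) had the largest difference at d4 of the 19. Its average was 0.056 RPM at d0, 0.114 at d2, 0.437 at d4 and 0.631 in XEN cells. The libraries held 0.113, 0.0658 and 0.0285 RPM at 8 h, 0.382 and 0.492 at d4, and 0.593 and 0.669 in XEN cells. Both d4 libraries lay above every 8 h, 16 h, d1 and d2 library, and both XEN libraries above d4. Ttr -16.3 kb was higher already at d1, as the 1 region of the 59 past 2-fold there. It is an intergenic region of early GATA6 binding with ectopic pluripotency factor (OCT4, SOX2 or ESRRB) and SOX17 peaks. Its averages were 0.215 RPM at d0, 0.494 at d1, 1.38 at d2, 1.02 at d4 and 0.812 in XEN cells. The d1 and d2 averages could not be resolved into libraries for this region. There the 8 h libraries held 0.0949 to 0.197 RPM and those of d4 0.955 and 1.08, with no overlap. The highest d4 value at Ttr was in an intron of B4galt6, at +76.1 kb, with 0.830 RPM at d0, 1.12 at d4 and 0.834 in XEN cells, and the largest negative difference, at +88.0 kb, was from 0.147 RPM at d0 to 0.102 at d4.

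At Rbp4, the region nearest the gene start lay at -9.0 kb in an intron of Pde6c and stood apart in XEN cells. Its average was 0.045 RPM at d0, 0.108 at d4 and 0.823 in XEN cells, a log2 difference of 2.63 between XEN cells and d4. The libraries held 0.0603 and 0.155 RPM at d4 and 0.884 and 0.762 in XEN cells, so the groups did not overlap. Across regions of chromosome 19 the median difference between XEN cells and d4 was 0.23, and over all regions it was -0.094. Rbp4 -36.7 kb, with the largest positive difference at d4, went from 0.048 RPM at d0 to 0.257 at d4 and 0.368 in XEN cells. Rbp4 +70.5 kb, at the Cep55 start, held the highest value, 1.49 RPM at d0 and 2.985 at d4, and Rbp4 +61.8 kb the largest negative difference, from 0.270 to 0.080 RPM.

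Afp, the serum protein gene, had a single GATA6 region, 77.8 kb past its start (chr5:90568337-90568662, in an intron of 5830473C10Rik, late GATA6 binding, SOX17 bound, closed at d0). The libraries held 0.0234, 0.0141 and 0.00949 RPM at 8 h, 0.135, 0.133 and 0.0968 at d2, 0.166 and 0.182 at d4, and 0.0451 and 0.0693 in XEN cells. These RPM values include the 1 read added per region and library, a large part of the lowest ones. Without it the reads are few: 4, 2 and 1 at 8 h, 32 and 33 at d4, and 12 and 2 in XEN cells. The region rose by 1.73 ± 0.30 (log2, SE) at d2 and 2.17 ± 0.33 at d4 against 8 h (limma, Benjamini-Hochberg adjusted p = 5.91e-08 and 2.71e-09), and fell in XEN cells against d4 by 1.24 ± 0.37 (adjusted p = 0.00805). With libraries centred on their median the d4 rise was 1.64 and still called, and the d2 rise of 0.95 was not past 2-fold. The XEN call was lost without one d4 library (adjusted p = 0.0821) or one XEN library (adjusted p = 0.0901).

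Apoa1, the main protein of high-density lipoprotein, had 6 regions, all of late GATA6 binding, closed at d0 and without pluripotency factor peaks. Apoa1 +13.4 kb, in an intron of Apoa4, was the nearest to the start and also had the highest value and the largest positive difference at d4. The libraries held 0.127, 0.0564 and 0.0142 RPM at 8 h, 0.206 and 0.273 at d4, and 0.218 and 0.115 in XEN cells. It rose by 1.45 ± 0.33 at d2 and 1.66 ± 0.37 at d4 against 8 h (limma, adjusted p = 4.73e-05 and 3.99e-05). Centred on the library medians these were 0.67, not called, and 1.14, called. Without one 8 h library the d2 difference was 0.99, not past 2-fold (limma, adjusted p = 0.0146). In XEN cells the other 5 Apoa1 regions held higher averages than at d4, and Apoa1 -31.5 kb, in an intron of Sik3, passed the test: 0.0703 and 0.0534 RPM at d4 against 0.201 and 0.162 in XEN cells, a rise of 1.20 ± 0.38 (limma, adjusted p = 0.0127) that rests on 57 and 6 reads in XEN cells. That call was lost without either d4 library or one XEN library (adjusted p from 0.0529 to 0.147). Of the 6 regions, 5 were past 2-fold higher in XEN cells than at d0, beside 57.7% of all late regions.

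Apoe, the apolipoprotein of remnant particles, had 13 regions, of which 4 were accessible, 7 moderate and 2 closed at d0. The region over its start was accessible at d0, bound transiently by GATA6, by SOX17, and by pluripotency factors at d0. This region held 0.994, 1.90 and 1.07 RPM in the 8 h libraries, 0.814 and 0.716 at d4, and 0.357 and 0.254 in XEN cells. It fell by 1.26 ± 0.44 in XEN cells against d4 (limma, adjusted p = 0.029). Against 8 h it differed by -0.71 at d4, not called, and by -1.23 when centred, called. Next to it lies Apoe +3.6 kb, a region of early GATA6 binding with SOX17 and ectopic pluripotency factor peaks. That region held 0.633, 0.992 and 0.698 RPM at 8 h, 2.05, 3.14 and 2.28 at d2, 1.36 and 1.496 at d4, and 0.537 and 0.531 in XEN cells. It rose by 1.65 ± 0.36 at d2 (limma, adjusted p = 2.46e-05; 0.86 when centred, not past 2-fold) and fell by 1.37 ± 0.44 in XEN cells against d4 (adjusted p = 0.0163). Both XEN calls were lost without any one of the d4 or XEN libraries (adjusted p from 0.0515 to 0.268). Apoe +11.9 kb, with the largest negative difference at d4, held 0.773, 0.614 and 0.528 RPM at d2 and 0.216 and 0.219 at d4, and fell by 1.42 ± 0.40 between them (limma, adjusted p = 0.00861; 0.136 and 0.123 without either d4 library). Apoe +33.7 kb rose by 1.02 ± 0.40 at d4 against 8 h (limma, adjusted p = 0.0255), a call lost with centring (0.50, adjusted p = 0.0849) and when either d4 library or either of 2 of the 8 h libraries was left out (adjusted p from 0.0569 to 0.246). The highest values were at Apoe -16.7 kb, at the Tomm40 start, with 1.97 RPM at d0 and 3.67 at d4. Of the 13 regions, 7 carry the promoter histone class of ES cells, against 6.88% of all regions.

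Fn1, the matrix gene, held both of the tested regions that limma called lower at d4 against 8 h. Fn1 +7.1 kb, in an intron of Fn1, was bound transiently by GATA6, by SOX17, and by pluripotency factors at d0, and was accessible then. The libraries held 0.253, 0.479 and 0.318 RPM at 8 h, 0.319, 0.257 and 0.344 at d2, 0.0452 and 0.102 at d4, and 0.0763 and 0.0923 in XEN cells. It fell by 1.89 ± 0.39 at d4 against 8 h (limma, adjusted p = 8.98e-06). Fn1 -20.5 kb held 0.272, 0.428 and 0.233 RPM at 8 h and 0.0553 and 0.0695 at d4, and fell by 1.85 ± 0.38 (limma, adjusted p = 9.70e-06). Between d2 and d4, Fn1 +7.1 kb fell by 1.75 ± 0.39 (limma, adjusted p = 0.000743; 0.146 without one d4 library). In both, the d4 and 8 h libraries did not overlap, and the differences centred on library medians were larger (-2.41 and -2.37). The nearest region to the start, Fn1 -3.2 kb, was low in every group, from 0.021 RPM at d2 to 0.062 in XEN cells. Fn1 -28.3 kb had the highest d4 value, 0.223 RPM, and 0.447 in XEN cells. Fn1 -78.6 kb, with the largest positive difference at d4, went from 0.055 RPM at d0 to 0.104 at d4 and 0.029 in XEN cells.

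**Figure D2:**
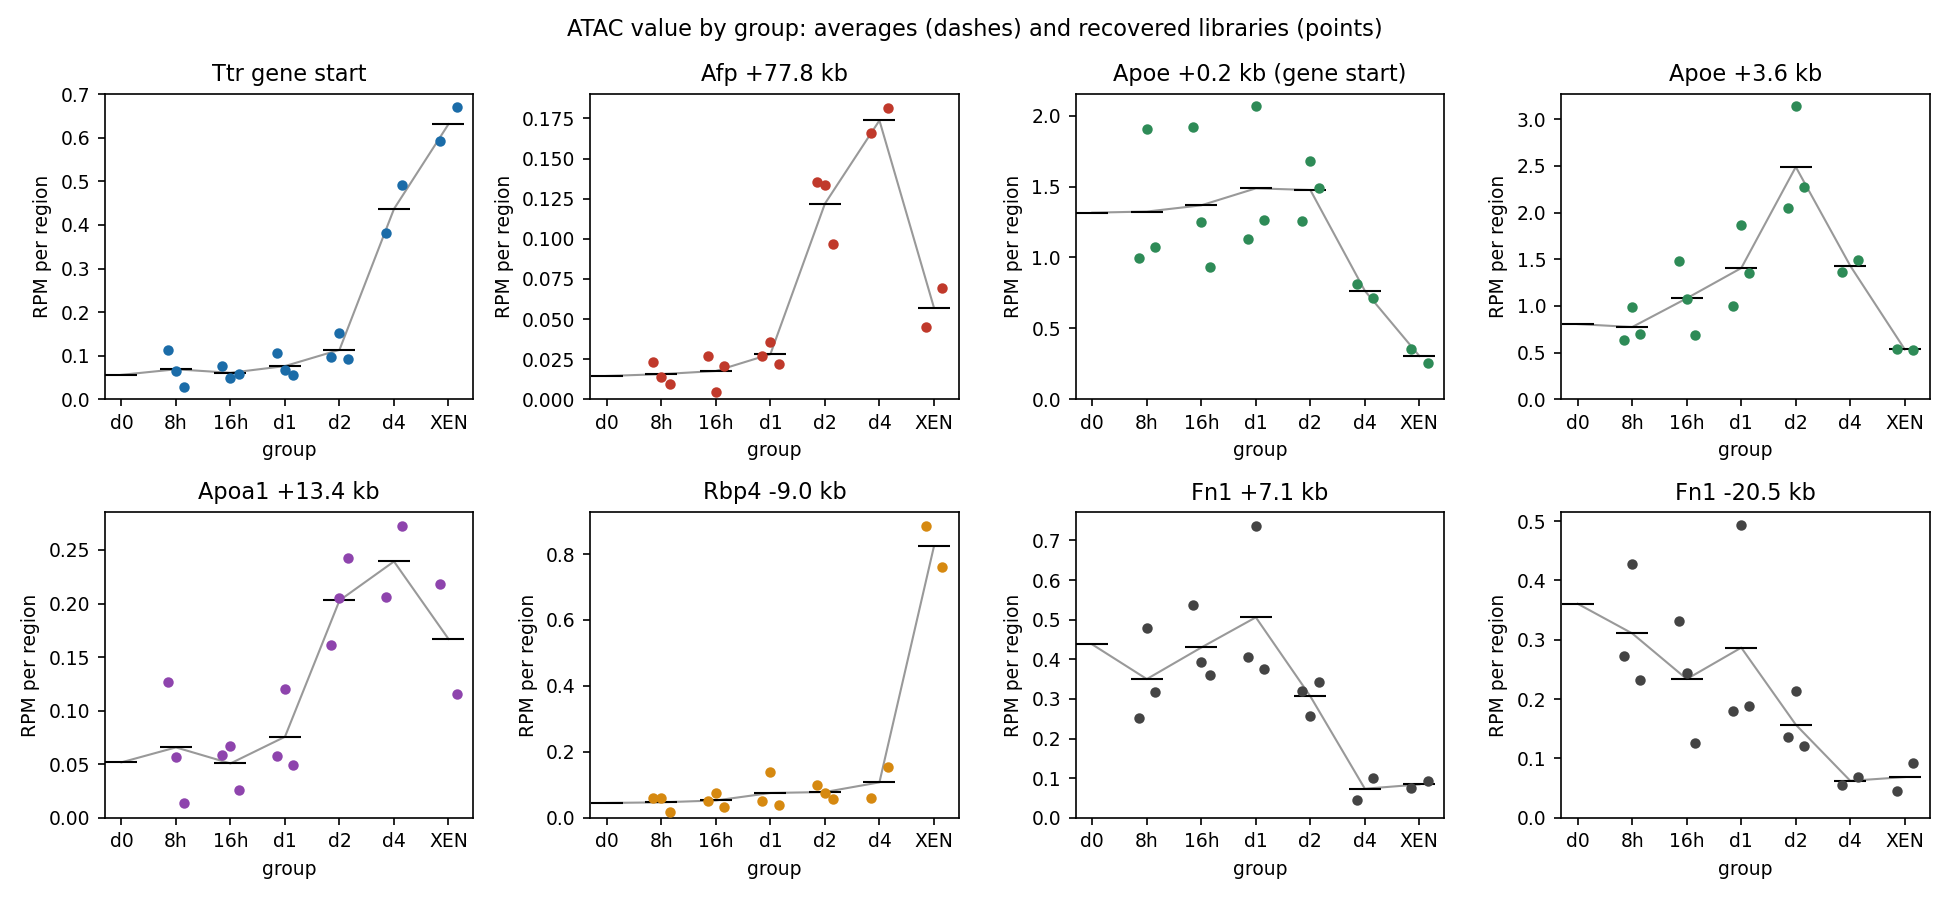
ATAC value in RPM per region (vertical axes from 0) by group for 8 regions. Dashes joined by a line are the authors' averages and points are recovered libraries, with none at d0. The 2 d4 points stand above the 8 h points at the Ttr start and Afp +77.8 kb and below them at Fn1 +7.1 kb and Fn1 -20.5 kb, while Rbp4 -9.0 kb is high in XEN cells alone.

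Among the 31 tested regions, 9 were called higher and 0 lower at d2 against 8 h at an adjusted p under 0.05 and over 2-fold, where limma called 36.9% of all tested regions higher and 1.15% lower. The 9 were 4 at Fn1, 3 at Apoe, 1 at Afp and 1 at Apoa1. At an unadjusted p under 0.05, 14 were higher and 2 lower, beside 13833 of all 24753 tested regions in either direction. Centred on the library medians, the split was 0 higher and 5 lower, where limma called 14.0% of all higher and 13.6% lower. At d4, 3 were higher and 2 lower (30.5% and 6.59% of all), and 2 and 4 when centred (16.2% and 15.6% of all). With a pseudocount of 0.15 RPM in place of 0.03, limma called 1 higher at d2, and 0 higher and 2 lower at d4. Over all 24753 regions this setting gave 4883 higher at d2, and 3439 higher and 485 lower at d4. At d1, limma called 0 higher, against 5.45% of all. There 3 were higher at an unadjusted p under 0.05, beside 4998 of all 24753 in either direction. Between d2 and d4, 2 were called lower (8.73% of all). In XEN cells against d4, 2 were higher and 5 lower (5.55% and 12.0% of all). The calls in XEN cells not named above were Fn1 -75.8 kb, higher, and Fn1 -78.6 kb and Apoe +89.5 kb, lower. Each was lost without either d4 library, among others (adjusted p from 0.0502 to 0.604 where lost). Library ranges did not overlap between d4 and 8 h, with d4 higher, in 21 of the 55 regions with values in both groups, Ttr and Rbp4 included, and with d4 lower in 8 (Rbp4 +40.5, +61.8 and +79.9 kb, Ttr +88.0 kb, Apoe +0.2 and +11.9 kb, and Fn1 +7.1 and -20.5 kb). Over the 24753 recovered regions, 48.7% were higher and 14.6% lower in this sense.

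Split by the authors' binding classes, the members' medians at d4 had the sign of those over all regions of the class. This holds for the binding sets given here, with no test. The 7 regions accessible at d0 differed in sign, with a median of 0.83 beside -0.30 over the 3152 such regions. Of these, 4 lie at Apoe, 1 at Rbp4 and 2 at Fn1. Apoe -16.7 kb, Apoe -51.2 kb and Rbp4 +70.5 kb, all higher, span the starts of the neighbours Tomm40, Nectin2 and Cep55. Those at Fn1 (-2.18 and -2.08) and Apoe +0.2 kb (-0.76) were lower. This class rests on accessibility at d0, which is also the baseline of the change. The 12 regions of late GATA6 binding with SOX17, at Ttr, Afp, Apoe, Apoa1, Rbp4 and Fn1, had a median change at d4 of 1.46 (8 past 2-fold higher), beside 1.42 over the 7603 such regions, of which 71.7% were past 2-fold higher. The 7 of late binding without SOX17 had a median of 0.39 and 0 past 2-fold higher, beside 0.62 and 25.0% over 6640. The 7 transient regions with pluripotency factors at d0 had a median of -1.19 (4 past 2-fold lower), beside -0.89 and 44.5% over 5309. The 10 with ectopic pluripotency factor peaks had a median of 0.92 and 3 past 2-fold higher, beside 1.27 and 60.1% over 7038. Of the 16 regions of early GATA6 binding, 2 were past 2-fold higher (44.8% of all early regions), and of the 26 bound by SOX17, 9 were (55.9% of all such regions). Apart from accessibility at d0, the classes are the authors' calls on binding in these same cells. In composition, 28 of 59 were closed at d0 (47.5%, against 61.3% of all).

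**Figure D3:**
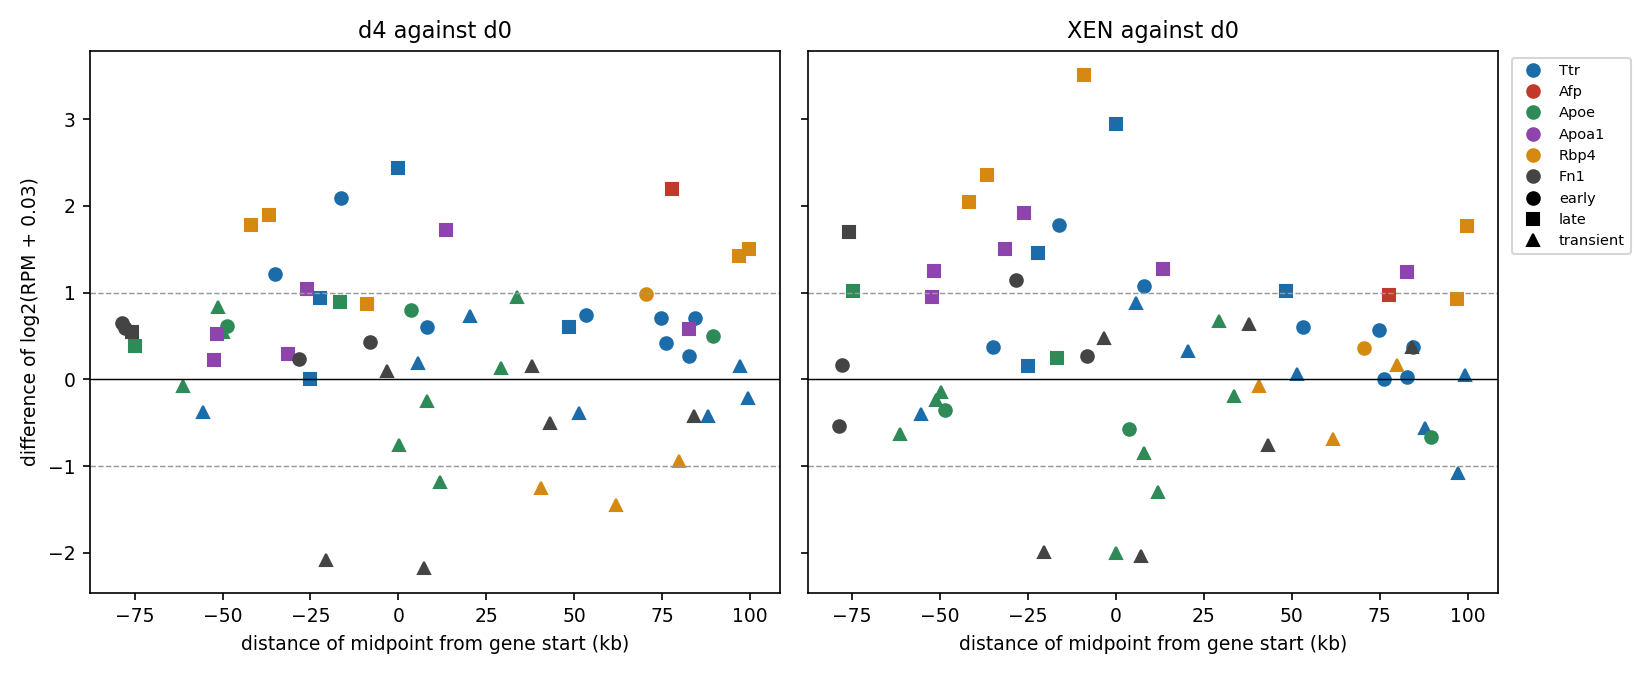
Difference of log2(RPM + 0.03) from d0 at d4 (left) and in XEN cells (right) for each region, by distance of its midpoint from the gene start in kb. Colour gives the gene, shape the GATA6 binding class, and dashed lines 2-fold. At d4, squares (late) and circles (early) lie at or above 0, and the points past 2-fold lower are triangles (transient).

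Summed over a locus, accessibility went from 3.42 RPM at d0 to 5.76 at d4 and 5.35 in XEN cells at Ttr, from 2.46 to 4.42 and 4.61 at Rbp4, and from 7.002 to 9.75 and 5.26 at Apoe. Rbp4 +70.5 kb, at the Cep55 start, held 1.49, 2.985 and 1.94 RPM of the Rbp4 sums. The sums at Apoa1 were 0.249, 0.596 and 0.934 RPM, and those at Fn1 1.54, 1.04 and 1.39. Over 19154 genes with a region, the median log2 difference between d4 and d0 was 0.67, beside 0.75 at Ttr, 0.84 at Rbp4, 0.48 at Apoe, 1.17 at Apoa1, 2.19 at Afp and -0.55 at Fn1. With columns divided by their sums, these differences were 0.020 at Ttr, 0.11 at Rbp4, -0.25 at Apoe, 0.49 at Apoa1, 1.80 at Afp and -1.26 at Fn1. Only the single Afp region made a called sum among the 4 tested loci: higher at d2 and at d4 (limma called 46.2% and 30.3% of loci higher) and lower in XEN cells against d4 (8.66% of loci).

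**Figure D4:**
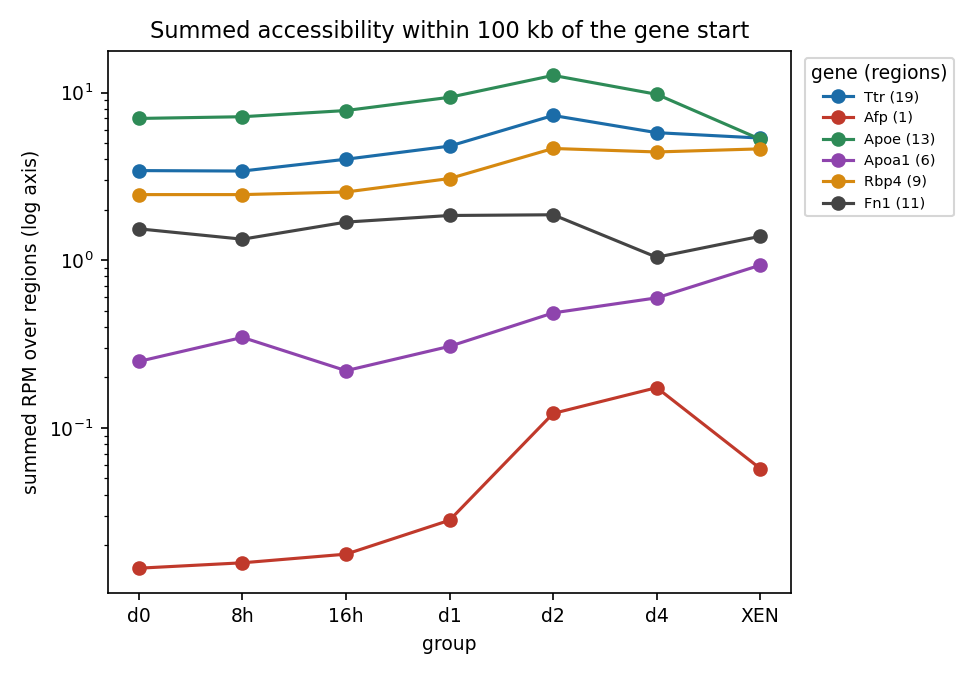
Summed RPM of the GATA6 regions within 100 kb of each gene start, by group, on a log axis, with the number of regions in brackets. Afp lies lowest throughout and peaks at d4, Apoe lies highest from d0 to d4, and the Apoa1 line reaches its highest point in XEN cells.

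Apob, which makes the core protein of very low-density lipoprotein, had no region to measure. The nearest GATA6 region lay 110.3 kb from its start, at chr12:8087592-8088304. Of 21938 protein-coding genes, 12.6% have none within 100 kb, and the median number is 4.

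For other genes of secretion and lipid transport, 11 genes were taken as a list (Apoa2, Apoa4, Apoc2, Apom, Mttp, Pltp, Trf, Alb, Gc, Ambp and Cp). They have 86 regions within 100 kb, of which 19 are those of Apoa1 (as Apoa4) and Apoe (as Apoc2). Among the 67 others, 27 were past 2-fold higher at d4 than at d0 and 0 lower, with a median of 0.79 (31.0% and 7.27% of all regions, median 0.52). In XEN cells against d4, 0 were past 2-fold higher and 11 lower (6.83% and 12.9% of all). Of the loci of this list that could be tested, Ambp (a protease inhibitor precursor) rose at d2 and d4 by 1.77 ± 0.32 and 2.39 ± 0.36 (limma, adjusted p = 3.28e-07 and 1.82e-09), and Alb (albumin), next to Afp on chromosome 5, rose by 1.20 ± 0.35 at d4 (adjusted p = 0.00288) from its 1 region. Trf (transferrin) differed by 0.86 and Gc (vitamin D binding protein) by 0.73 at d4, neither past 2-fold. Mttp, which loads lipid onto Apob, was not testable, and its sum went from 0.974 RPM at d0 to 4.44 at d4. Of the others not tested, Apom differed from d0 by 1.03 at d4 and 0.43 in XEN cells, Apoa2 by 0.45 and 0.095, Pltp by -0.11 and -0.83, and Cp by 0.40 and -0.89.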

How the data were processed

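ATAC-seq of 20 samples was used. Per the methods and labels, the authors used cutadapt for adapters and Bowtie2 for alignment to mm10, filtered out duplicates and alignments of low quality, and counted short fragments within GATA6 peaks. The deposited RPM values are corrected for library size and averaged per group by the authors; low values show 1 read added per region and library. The authors' FIMO motif score and region categories were used as deposited. Of 105 columns, 7 hold ATAC values and 52 hold per-sample values of other assays, not used here. Averages carry no spread, so whole reads of single libraries were recovered from the steps of the values where all digits were deposited. The planned design assumed replicates; limma 3.58.1 (R 4.3.3) was therefore run on log2(RPM + 0.03) of the 16 recovered libraries, over all 24753 regions, with Benjamini-Hochberg adjustment and 6 contrasts; calls need an adjusted p under 0.05 and a change over 1. A change on this scale understates that of low regions. Recovery and test were tested on simulated data. Where digits were cut to 7, library values were used only where 1 solution existed, a step added after seeing the data. Regions named per gene by rule are those nearest the start, highest at d4, and with the largest rise and fall at d4. Others were named for their values or calls once these were seen. Among them are Ttr -16.3 kb, Apoe +3.6 kb, Apoa1 -31.5 kb and Fn1 -20.5 kb. Members and lists were chosen with earlier results of these data known. Alternatives were other pseudocounts (0.006, 0.15), scalings, windows (50 and 200 kb), a filter and leaving out each library.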

Additional observations from a re-analysis of the deposited data

How the results depend on the processing

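No paired analysis was possible because the columns carry no replicate numbers and recovered libraries carry no label. Leaving out a library leaves 1 sample at d4 or XEN, which is then assumed to vary like the other groups.

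Centring and quantile normalisation set the column medians equal by construction. The median change against d0 was 0.26 at d1, 0.70 at d2, 0.53 at d4 and 0.37 in XEN. It turned with centring to -0.14, -0.13, -0.033 and -0.12, and with quantile normalisation to -0.041, -0.23, -0.060 and -0.14. With a pseudocount of 0.006 it was 0.36, 0.81 and 0.63 at d1, d2 and d4, and with 0.15 it was 0.11, 0.39, 0.25 and 0.18 (XEN). It was 0.58 at d2 within 200 kb, and in XEN 0.43 within 50 kb and 0.25 with the lowest value subtracted.

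Regions past 2-fold higher at d1 were 0 with a pseudocount of 0.15, centring or quantile normalisation, and 4 within 200 kb. At d2 the counts higher were 4 (pseudocount 0.15), 1 (centred), 2 (quantile), 8 (50 kb) and 27 (200 kb), and lower 0, 9, 8 and 1 (50 kb). At d4 they were 4, 6, 6 and 20 (200 kb) higher and 2, 8 and 9 lower. In XEN they were 6, 9, 10 and 31 higher and 3, 13, 12 and 9 (200 kb) lower. The 50 kb window holds fewer regions than the 100 kb window, and the 200 kb window more. Counts in these windows therefore cannot be read as less or more change than at 100 kb. With centring, 13.1% of all regions were higher and 13.9% lower at d2, and 15.8% and 16.4% at d4. The other counts of this paragraph were not set beside a share of all regions, so they do not say whether the members differ from the rest.

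The d4 locus changes with columns divided by their sum were 0.020 (Ttr), 1.80 (Afp), -0.25 (Apoe), 0.49 (Apoa1), 0.11 (Rbp4) and -1.26 (Fn1). Within 50 kb they were 1.54 (Ttr), 1.43 (Apoa1) and -0.96 (Fn1), and within 200 kb 0.86 (Afp), 0.60 (Apoa1) and -0.074 (Fn1). Pseudocounts of 0.006 and 0.15 gave 3.13 and 0.98 at Afp, 1.24 and 0.90 at Apoa1, and 0.15 gave -0.50 at Fn1.

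Calls by limma at d2 were 1 higher (pseudocount 0.15), 0 (centred) and 1 (quantile), with 5 and 3 lower. Of all 24753 regions, 4883, 3466 and 2865 were called higher under these settings. Centring and quantile normalisation gave 3359 and 2560 lower. At d4, 0 were higher with 0.15 (3439 of all), and 4 lower under either scaling (3861 of all centred, 3890 quantile). Between d2 and d4, 1 was lower with quantile normalisation. In XEN against d4, 0 were higher with either pseudocount and 4 with quantile normalisation, and 2 (0.15) and 3 (quantile) lower. Of all 24753 regions, 983 (0.006), 202 (0.15) and 2214 (quantile) were higher there, and 1434 (0.15) and 2356 (quantile) lower. Leaving out each library gave 0 to 1 higher at d1, 6 to 11 higher and 0 to 1 lower at d2, 2 to 5 higher and 2 to 3 lower at d4, 0 to 2 lower between d2 and d4, and 0 to 2 higher and 0 to 7 lower in XEN. These leave-out counts were not set beside counts over all regions, so they do not say whether the members differ from the rest. For locus sums, a pseudocount of 0.15 gave 0 called at d2, d4 and XEN. Libraries divided by their sums gave 1 lower at d4, and 1 higher and 0 lower in XEN. Leave-outs gave 1 to 2 higher at d2, 1 to 2 at d4 and 0 to 1 lower in XEN. The causes were not tested.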
